A study of Homo sapiens with 6 samples.

Results

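The AP-1 and immediate early transcription factors were 10 genes, FOS, FOSB, FOSL1, FOSL2, JUN, JUNB, JUND, EGR1, IER2 and MYC, taken by symbol from the 60605 Ensembl genes of the count table. All 10 were found, and all 10 passed the filter on low counts, which 14479 genes passed. RNA was sequenced from UMUC3, a human bladder cancer line, in 3 libraries of cells infected with TIM-1 in the vector PLVX-IRES-zsgreen and 3 of cells infected with PLVX-IRES-Zsgreen alone. Both groups therefore carry the pLVX backbone, a lentiviral vector, and the ZsGreen reporter, and differ by the TIM-1 insert. HAVCR1 encodes TIM-1, a membrane receptor that binds phosphatidylserine. The labels do not say whether the libraries numbered 1 to 3 came from separate cultures or from 1 infected pool, so p-values measure only the scatter of these 6 libraries, and that scatter may be technical.

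Totals were 14312387 to 18605914 counts in TIM-1 libraries, against 15651864 to 17162935 in empty-vector libraries. HAVCR1 counts were 7069, 9824 and 11479 in the TIM-1 libraries, against 4, 0 and 0 in the empty-vector libraries. The labelled cell type was checked against 16 urothelial and epithelial markers. Of these KRT20, EPCAM and UPK3A had 0 counts in every library, UPK1A had at most 12, and KRT18 averaged 343 ± 62.8 CPM (counts scaled to library size) in TIM-1 cells, against 409 ± 98.7 CPM in empty-vector cells (SD, n = 3 each). Of 5 mesenchymal markers, the filament gene VIM averaged 1639 ± 197 CPM in TIM-1 cells, against 1818 ± 272 CPM in empty-vector cells. ZEB1 averaged 148 and 160 CPM in the same order, CDH2 31.2 and 27.9, FN1 13.9 and 12.3, and SNAI2 1.23 and 0.819. Of 12 leukocyte, endothelial and fibroblast markers 7 had 0 counts in all 6 libraries.

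AP-1 is a dimeric transcription factor made of a FOS protein with a JUN protein, or of 2 JUN proteins, joined by leucine zippers. Several of its subunits, though not all, are induced within minutes of a growth factor, stress or serum signal, without new protein synthesis. So are the zinc finger factor EGR1, the nuclear protein IER2 and the growth regulator MYC, and most of these transcripts are short-lived. Signals reach the FOS and EGR1 promoters through the kinases ERK, JNK and p38, which act on ternary complex factors bound with SRF at a CArG box, and through CREB and ATF proteins at cAMP response elements. FOSL1 and FOSL2 are expressed later and longer than FOS and FOSB, and FOSL1 with JUN is a common AP-1 pair in carcinoma lines. In bulk RNA, a lower level cannot be told apart between fewer cells that express a gene and less RNA per cell.

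Promoter sequence is shown for FOSB, called lower with TIM-1, and for FOS, EGR1 and JUNB, as examples of members lower in replicate 1. Each is the 250 bases before the RefSeq start, 5′ to 3′ on the coding strand, from RefSeq (GRCh38.p14), which is the assembly of the authors' hg38. Capitals mark the cAMP response element core TGACG on either strand and the CArG box. The windows are chr14:75278578-75278827 for FOS, chr19:45467746-45467995 for FOSB, chr19:12791236-12791485 for JUNB and chr5:138465229-138465478 for EGR1, all on the plus strand.
FOS: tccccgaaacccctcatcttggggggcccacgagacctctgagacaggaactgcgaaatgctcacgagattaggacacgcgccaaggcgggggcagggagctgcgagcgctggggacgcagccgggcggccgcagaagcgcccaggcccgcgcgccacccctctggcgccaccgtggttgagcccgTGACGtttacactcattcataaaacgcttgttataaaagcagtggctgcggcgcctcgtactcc
FOSB: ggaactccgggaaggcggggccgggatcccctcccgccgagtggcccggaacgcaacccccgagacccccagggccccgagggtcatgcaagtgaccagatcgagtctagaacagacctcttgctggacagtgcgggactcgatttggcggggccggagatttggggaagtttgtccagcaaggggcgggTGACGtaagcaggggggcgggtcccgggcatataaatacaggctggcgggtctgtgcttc
JUNB: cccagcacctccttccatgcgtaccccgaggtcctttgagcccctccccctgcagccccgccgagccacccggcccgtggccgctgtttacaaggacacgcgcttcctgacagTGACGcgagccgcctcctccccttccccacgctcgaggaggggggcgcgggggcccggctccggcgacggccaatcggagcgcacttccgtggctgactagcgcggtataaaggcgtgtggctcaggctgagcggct
EGR1: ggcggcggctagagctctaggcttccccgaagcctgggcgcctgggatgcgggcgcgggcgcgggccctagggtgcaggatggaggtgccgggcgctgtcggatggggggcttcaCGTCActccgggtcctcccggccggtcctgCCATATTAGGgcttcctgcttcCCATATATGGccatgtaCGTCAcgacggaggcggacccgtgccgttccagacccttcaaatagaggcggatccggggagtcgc

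RefSeq windows matched 8 of the 10 members. TGACG was present in 8 of the 8, against 21.2% of all 35116 windows of this length. It began 64 bases before the start in FOS, 60 in FOSB and 137 in JUNB, and in EGR1 it lay at 135 and 66 bases. Within these windows CArG boxes were found in EGR1 alone, beginning 105 and 83 bases before the start, and in 1.159% of all windows. Sites more than 250 bases before the start were not searched, so a member without a match here may still hold one further upstream. The full element TGACGTCA, which holds TGACG on both strands, was found in JUND alone and in 1.65% of all windows. The AP-1 site TGANTCA was in 0 of the 8 windows and in 6.57% of all. TATAAA was present in FOS, FOSB and JUNB and in 10.7% of all windows. Both strands were searched for each motif. FOSL2 and JUN, whose levels varied least between replicate numbers among the 8, also held TGACG. As all 8 windows held it, its presence could not separate steady from variable members.

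Per length, as TPM (counts over the GENCODE 29 exon length, scaled to a fixed total per library), JUN and EGR1 had the highest levels and IER2 and FOSB the lowest. JUN averaged 631 ± 65.9 TPM in TIM-1 cells, against 608 ± 50.2 TPM in empty-vector cells (SD, n = 3 each). EGR1 averaged 607 ± 211 TPM in TIM-1 cells, against 599.5 ± 240.5 TPM in empty-vector cells. FOSL1 averaged 522 ± 28.2 TPM in TIM-1 cells, against 521 ± 23.5 TPM in empty-vector cells. Next came MYC with 259 ± 78.7 TPM in TIM-1 cells, against 327 ± 98.1 TPM in empty-vector cells. Below MYC stood FOS, JUNB, JUND, FOSL2, FOSB and IER2, the last with 41.5 ± 16.1 TPM in TIM-1 cells, against 41.9 ± 16.0 TPM in empty-vector cells. Over the 6 libraries the ranges of neighbours in this order overlapped, except that FOSL1, at 490 to 547 TPM, lay above MYC, at 169 to 394 TPM, and FOSL2, at 97.9 to 109 TPM, lay above FOSB, at 8.20 to 95.0 TPM.

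**Figure D1:**
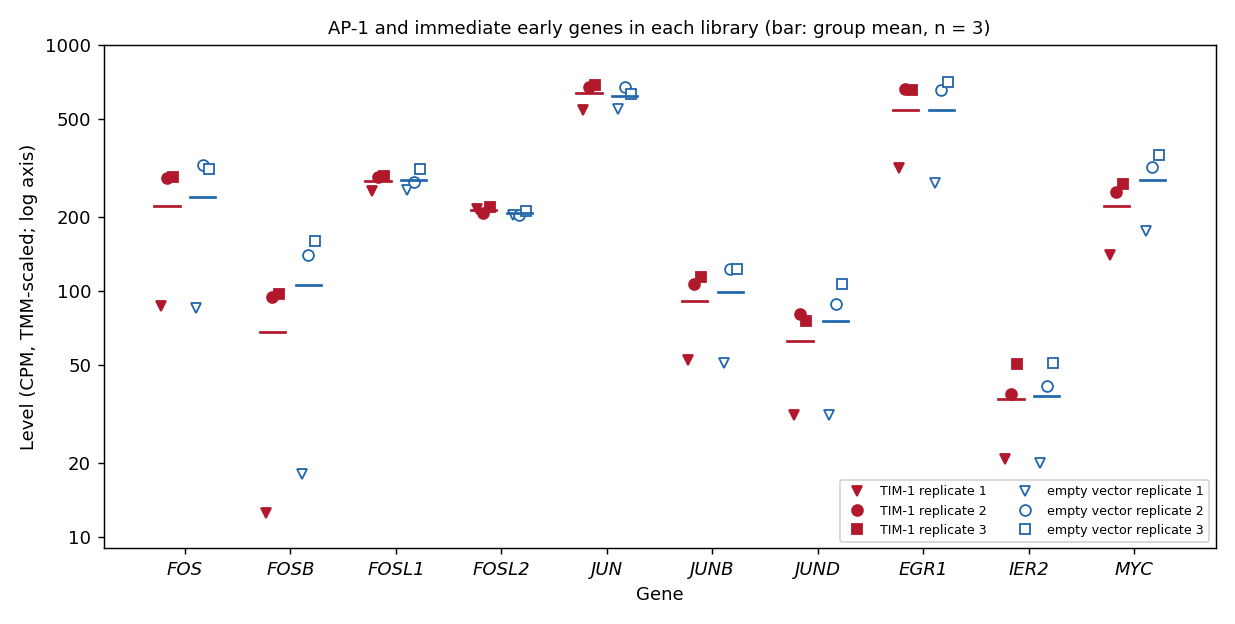
Level of each gene in CPM (log axis) in the 6 libraries, TIM-1 filled and left, empty vector open and right, with the shape giving the replicate number and the bar the group mean (n = 3). Replicate 1 lies below replicates 2 and 3 in both groups for 9 of the 10 genes, FOSL2 being the exception, and FOSB and MYC are lower with TIM-1 at each replicate number.

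With TIM-1, FOSB and MYC fell when same-numbered libraries were compared as pairs, and the other 8 members did not pass the test. Without the pairing 0 members passed in the edgeR quasi-likelihood test, in which 0.0138% of all 14479 genes were called higher and 0% lower. At an unadjusted p under 0.05 that test held 795 genes and 0 members, and DESeq2 called 25 genes and 0 members. With the replicate number as a block, 2 of 10 members were called lower and 0 higher, against 1.79% of all genes lower and 3.22% higher. The members had a median log2 fold change of -0.06 in the paired test, against 0.00010 over all genes. For none of the 10 did the 3 values of a group lie outside those of the other, against 6.6% of all genes with TIM-1 above the empty vector and 5.06% with TIM-1 below it. FOSB and MYC were lower in all 3 pairs (19.1% of all genes were), FOSL2 was higher in all 3 (20.1% were), and 7 members went both ways. Of the leukocyte, endothelial and fibroblast markers 2 of 12 were tested, and COL1A1, a fibroblast collagen gene, was higher with TIM-1 (paired log2 fold change 0.90, edgeR adjusted p = 0.000265). The summed level of these 12 was 9.22 to 15.9 CPM in TIM-1 libraries, against 5.73 to 9.33 CPM in empty-vector libraries, and its part in the results was not tested. Of the 6 urothelial and epithelial markers tested, PPARG was higher with TIM-1 (paired log2 fold change 0.62, edgeR adjusted p = 0.0185) and KRT18 (-0.24, edgeR adjusted p = 0.00946) and GATA3 (-1.25, edgeR adjusted p = 0.0457) were lower. None of these 3 calls held without the replicate 2 pair or without the replicate 3 pair (edgeR adjusted p of 0.0593 to 0.382), and PPARG did not pass either when pair 1 was left out (edgeR adjusted p = 0.0778) or in the paired DESeq2 test (adjusted p = 0.329). With a coarser block, replicate 1 against the others, KRT18 and GATA3 were not called (edgeR adjusted p = 0.0599 and 0.0608).

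FOSB encodes a FOS-family subunit of AP-1 and lies on chromosome 19 from 45467995 to 45475179 (plus strand, GRCh38). FOSB was covered by 182, 1526 and 1793 reads in TIM-1 replicates 1, 2 and 3, against 288, 2251 and 2644 in the empty-vector replicates. Scaled for depth these were 12.6, 94.4 and 96.8 CPM with TIM-1, against 18.0, 139 and 159 CPM with the empty vector. Each TIM-1 library lay below its empty-vector partner, while the groups overlapped, both replicate 1 libraries being low. The paired differences were -0.52, -0.56 and -0.72 on the log2 scale for pairs 1, 2 and 3. FOSB thereby stood at 0.652 times its empty-vector level in the paired test (log2 fold change -0.62, SE 0.07, edgeR adjusted p = 4.66e-08). Unpaired, it was -0.63 (SE 1.07, edgeR adjusted p = 0.956). The annotated span of FOSB overlaps that of ERCC1 on the other strand, and ERCC1 had a paired log2 fold change of -0.07 (edgeR adjusted p = 0.627).

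MYC encodes a basic helix-loop-helix factor that drives genes of growth and ribosome production, and lies on chromosome 8 from 127735434 to 127741434 (plus strand). MYC was covered by 2026, 4081 and 5048 reads in TIM-1 replicates 1, 2 and 3, against 2783, 5134 and 5932 in the empty-vector replicates. The levels were 140, 253 and 272 CPM with TIM-1, against 174, 317 and 358 CPM with the empty vector. As for FOSB, every TIM-1 library lay below its partner, and TIM-1 replicates 2 and 3 lay below empty-vector replicates 2 and 3. The paired differences of -0.32, -0.33 and -0.39 gave a log2 fold change of -0.35, or 0.786 times the empty-vector level (SE 0.06, edgeR adjusted p = 0.000105). Unpaired it was -0.35 (SE 0.36, edgeR adjusted p = 0.931).

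Both calls were made in each paired fit that was run, which used edgeR with each pair left out in turn, with other size factors, with no filter, with a GC correction and with the coarser block, and DESeq2. The paired log2 fold change ran from -0.65 to -0.55 for FOSB and from -0.37 to -0.32 for MYC. With the replicate 1 libraries left out and no pairing, an alternative chosen after seeing the data, FOSB had a log2 fold change of -0.65 (edgeR adjusted p = 0.00105) and MYC one of -0.37 (edgeR adjusted p = 0.0353). In that fit 2 of 10 members were called lower, and 0 higher, against 0.563% of all genes lower and 1.2% higher.

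**Figure D2:**
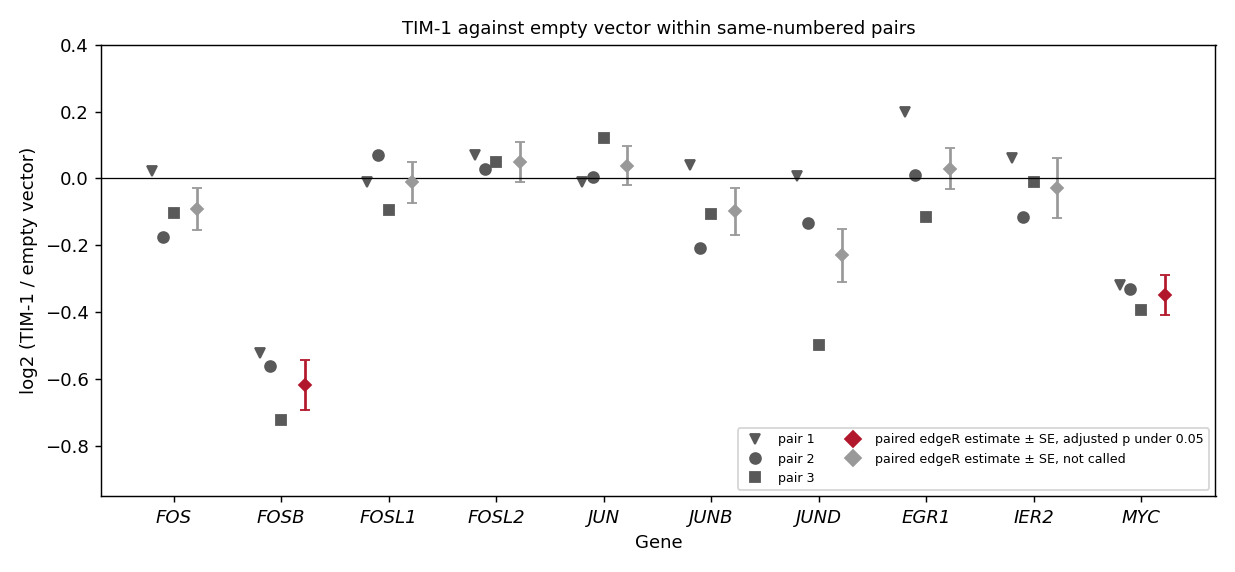
Log2 ratio of TIM-1 to empty vector for each gene in pairs 1, 2 and 3 (grey shapes), with the paired edgeR estimate and its SE (diamonds, red where the adjusted p is under 0.05). FOSB and MYC lie below 0 in all 3 pairs, and JUND is near 0 in pair 1 and at -0.50 in pair 3.

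The other FOS-family genes did not pass. FOS, the founding member, had 86.4, 288 and 291 CPM in TIM-1 replicates 1, 2 and 3, against 85.1, 325 and 312 CPM in the empty-vector replicates. Its pairs stood at 0.02, -0.18 and -0.10 on the log2 scale, for a paired log2 fold change of -0.09 (SE 0.06, edgeR adjusted p = 0.466). FOSL1, which encodes FRA-1, had 255, 290 and 292 CPM in TIM-1 cells, against 257, 276 and 312 CPM in empty-vector cells. FOSL2, which encodes FRA-2, had 214, 208 and 219 CPM in TIM-1 cells, against 204, 204 and 212 CPM in empty-vector cells. Its 3 pairs were all slightly positive, at 0.07, 0.03 and 0.05, with a paired log2 fold change of 0.05 (SE 0.06, edgeR adjusted p = 0.732). For FOSL1 the paired value was -0.01 (SE 0.06, edgeR adjusted p = 0.948).

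Among the JUN genes, JUND had the greatest difference, which was widest in pair 3. JUND, an AP-1 subunit often described as restraining growth, had 31.3, 80.4 and 75.5 CPM in TIM-1 replicates 1, 2 and 3, against 31.2, 88.2 and 106 CPM in the empty-vector replicates. Its paired differences were 0.0059, -0.13 and -0.50, with a paired log2 fold change of -0.23 (SE 0.08, edgeR adjusted p = 0.0872). Without the replicate 1 pair the JUND value was -0.32 (edgeR adjusted p = 0.0155), and with a correction for GC content it was -0.23 (edgeR adjusted p = 0.0155), so the call changed with the setting. With the GC correction 3 of 10 members were lower and 0 higher, against 4.35% of all genes lower and 4.76% higher. JUND was the most GC-rich member at 69.7% in its longest transcript, against 52.6% for FOS, the lowest. JUN, the partner of FOS proteins in most AP-1 dimers, had 542, 671 and 688 CPM in TIM-1 cells, against 546, 670 and 633 CPM in empty-vector cells, with overlapping groups (paired log2 fold change 0.04, SE 0.06). JUNB had 52.4, 106 and 114 CPM in TIM-1 cells, against 50.9, 122.9 and 122.3 CPM in empty-vector cells, with a paired log2 fold change of -0.10 (SE 0.07, edgeR adjusted p = 0.485).

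EGR1 and IER2 did not separate the groups either. EGR1 had 315, 658 and 653 CPM in TIM-1 replicates 1, 2 and 3, against 274, 653 and 707 CPM in the empty-vector replicates, and its pairs stood at 0.20, 0.01 and -0.11 (paired log2 fold change 0.03, SE 0.06, edgeR adjusted p = 0.854). The 2 corepressors of EGR proteins, NAB1 and NAB2, had paired log2 fold changes of -0.07 and 0.15 and were not called. IER2 had 20.8, 37.9 and 50.4 CPM in TIM-1 cells, against 19.9, 41.1 and 50.8 CPM in empty-vector cells, with a paired log2 fold change of -0.03 (SE 0.09, edgeR adjusted p = 0.911).

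For 9 of the 10 members the levels differed more between replicate numbers than between the vectors. Replicate 1 was set against replicates 2 and 3, with the group as a term, because earlier results of these data had shown it to stand apart, so the tests describe that difference and do not establish it independently. In replicate 1, 9 of 10 members were lower by the edgeR quasi-likelihood test and 0 higher, against 12% of all genes lower and 11.6% higher. Both replicate 1 libraries lay below the 4 others for the same 9 members, which held for 20.4% of all genes. The median log2 difference of the members was -1.159, against -0.0074 over all genes. The labels do not say what the numbers mark. The replicate 1 libraries had the lowest total of each group, 14312387 counts for TIM-1 and 15651864 for the empty vector, and the part of depth was not tested. The share of counts from mitochondrial genes was 4.38% and 4.20% in the replicate 1 libraries, within or just below the 4.22% to 5.08% of the others.

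FOSB differed most, 7.97-fold lower in replicate 1 (log2 difference -2.99, SE 0.10, edgeR adjusted p = 6.95e-17). FOS was 3.54-fold lower (-1.82, SE 0.07, edgeR adjusted p = 3.48e-15), JUND 2.79-fold, EGR1 2.27-fold, JUNB 2.25-fold and IER2 2.22-fold. MYC was 1.91-fold lower (-0.93, SE 0.07, edgeR adjusted p = 5.62e-10). JUN and FOSL1 had small differences, -0.29 (SE 0.06, edgeR adjusted p = 0.00115) and -0.19 (SE 0.07, edgeR adjusted p = 0.0346). That of JUN was not called without TIM-1 replicate 1 (edgeR adjusted p = 0.0789). That of FOSL1 was not called without TIM-1 replicate 1, 2 or 3 or empty-vector replicate 1 (edgeR adjusted p = 0.209, 0.0687, 0.121 and 0.247). FOSL2 stood at -0.01 (SE 0.06, edgeR adjusted p = 0.926).

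As both replicate 1 libraries lay below the 4 others for 9 members, each of these had the same sign of difference in both groups. The difference between replicate numbers is given here for FOSB, FOS, MYC, EGR1 and JUND. Taken within each group, as the ratio of replicate 1 to the mean of replicates 2 and 3, it was -2.93 on the log2 scale for FOSB in TIM-1 cells, against -3.05 in empty-vector cells. For FOS it was -1.74 in TIM-1 cells and -1.91 in empty-vector cells, and for MYC -0.91 in TIM-1 cells and -0.95 in empty-vector cells. For EGR1 the values were -1.06 in TIM-1 cells and -1.31 in empty-vector cells, and for JUND -1.31 in TIM-1 cells and -1.64 in empty-vector cells. Whether these ratios differ between the groups was not tested.

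**Figure D3:**
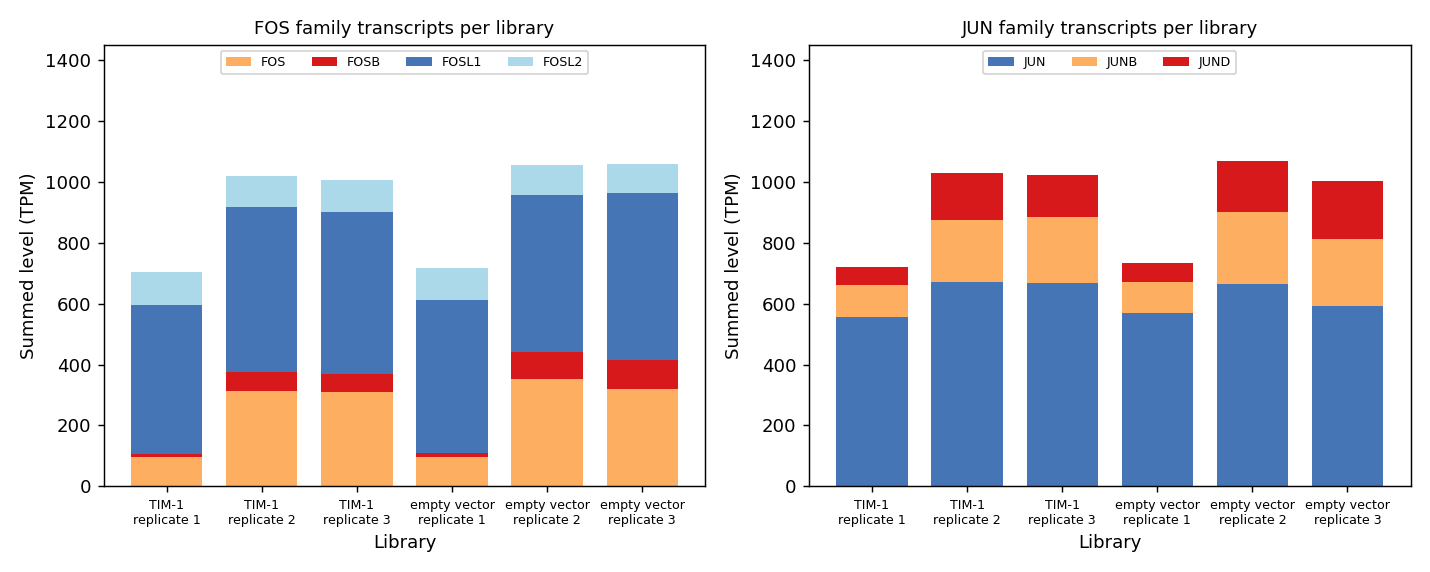
Summed TPM of the FOS family (left) and of the JUN family (right) in each library, stacked by gene. In replicate 1 the FOS and FOSB segments and the JUNB and JUND segments are smaller, while FOSL1, FOSL2 and JUN change little.

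The make-up of AP-1 transcripts differed by replicate number. FOSL1 held 69.6% of FOS-family TPM in TIM-1 replicate 1 and 53.3% and 52.9% in TIM-1 replicates 2 and 3, against 70.1% in empty-vector replicate 1 and 48.7% and 51.7% in replicates 2 and 3. The share of FOS was 13.8% in TIM-1 replicate 1 and 30.8% and 30.7% in replicates 2 and 3, against 13.5%, 33.4% and 30.1% with the empty vector. FOSB held 1.17%, 5.89% and 5.95% of the family in TIM-1 cells, against 1.67%, 8.34% and 8.97% in empty-vector cells, lower with TIM-1 at each number. JUN held 77.1% of JUN-family TPM in TIM-1 replicate 1 and 65.1% and 65.4% in replicates 2 and 3, against 77.5%, 62.2% and 59.0% with the empty vector. The sum of FOS-family TPM was 703, 1019 and 1007 with TIM-1, against 716, 1055 and 1059 with the empty vector.

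Of 27 tested among 29 other immediate early genes, 3 rose with TIM-1 and 2 fell in the paired test, where 3.22% of all genes were higher and 1.79% lower, and the median log2 fold change was 0.04. IER3, an apoptosis regulator, rose by 0.33 in log2 units (edgeR adjusted p = 0.00496). PLK2, a polo-like kinase gene, rose by 0.26 in log2 units (edgeR adjusted p = 0.00509). ZFP36L1, which encodes an RNA-binding protein that promotes decay of AU-rich transcripts, fell by 0.25 in log2 units (edgeR adjusted p = 0.00681). EGR3, named after its values were seen, had 22, 113 and 138 counts in the TIM-1 libraries, against 11, 67 and 83 in the empty-vector libraries, and its paired log2 fold change of 0.73 (edgeR adjusted p = 0.0373) was opposite in sign to that of FOSB. KLF6, also named after its values were seen, stood at -0.19 (edgeR adjusted p = 0.0469). The calls of EGR3 and KLF6 were not checked under the alternative settings. In replicate 1, 16 of the 27 were lower and 2 higher, against 12% of all genes lower and 11.6% higher, with a median log2 difference of -0.64. With the replicate 2 pair left out the paired call was lost for PLK2 (edgeR adjusted p = 0.165) and ZFP36L1 (0.0998), and with the replicate 3 pair left out for IER3 (0.0728) and ZFP36L1 (0.0538). IER3 was also not called by DESeq2 in pairs (adjusted p = 0.0986).

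**Figure D4:**
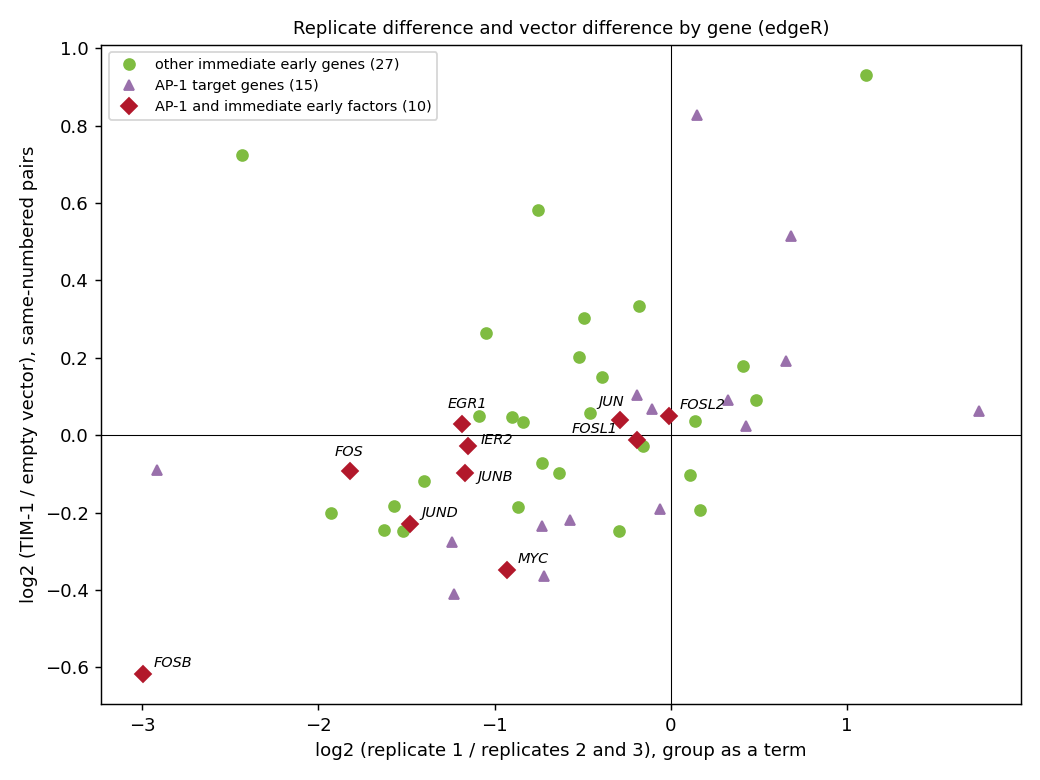
Log2 difference of replicate 1 against replicates 2 and 3 (x) and paired log2 fold change of TIM-1 against the empty vector (y) for the 10 factors, 27 other immediate early genes and 15 AP-1 target genes, all from edgeR. Most immediate early genes lie left of 0, and on the y axis the 10 factors lie between -0.62 and 0.05. Both axes use the same 6 libraries.

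Of 12 tested among 13 AP-1 partners and related leucine zipper genes, 2 fell with TIM-1 in the paired test and 0 rose, against 1.79% of all genes lower and 3.22% higher, with a median log2 fold change of -0.04. These were JDP2, a repressor that binds JUN, at 13.8 ± 1.41 CPM in TIM-1 cells, against 18.5 ± 3.46 CPM in empty-vector cells (SD, n = 3 each), and ATF3, a stress-induced factor, at 11.1 ± 6.13 CPM in TIM-1 cells, against 15.1 ± 9.15 CPM in empty-vector cells. Their paired log2 fold changes were -0.42 (edgeR adjusted p = 0.0239) and -0.43 (edgeR adjusted p = 0.0432). Neither call held without the replicate 2 pair, where the edgeR adjusted p was 0.344 for JDP2 and 0.408 for ATF3, or without the replicate 3 pair, where it was 0.122 for JDP2 and 0.286 for ATF3. DESeq2 in pairs called neither (adjusted p = 0.318 for JDP2 and 0.452 for ATF3), and with the coarser block ATF3 was not called (edgeR adjusted p = 0.0627). ATF3 was also lower in replicate 1, by a log2 difference of -2.02. Of 21 upstream kinases and transcription factors 0 passed the paired edgeR test, and 0 had an unadjusted p under 0.05, with a median log2 fold change of 0.0049. MAP2K2, an ERK kinase gene, had a paired log2 fold change of -0.14 (edgeR adjusted p = 0.392). In replicate 1, 4 of these 21 were higher and 1 lower, against 11.6% of all genes higher and 12% lower. These were MAP2K1, MRTFB, ELK1 and MAPK9 (log2 differences of 0.20 to 0.55) and MAP2K7 (-0.32), all 5 named after their values were seen.

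Of 15 tested among 21 genes known as AP-1 targets, 2 rose with TIM-1 and 4 fell in the paired test, against 3.22% of all genes higher and 1.79% lower, with a median log2 fold change of 0.02. MMP2, a gelatinase gene, stood at 17.8 ± 0.281 CPM in TIM-1 cells, against 10.1 ± 1.46 CPM in empty-vector cells (SD, n = 3 each; paired log2 fold change 0.83, edgeR adjusted p = 9.49e-06), and its groups did not overlap. VEGFA, the angiogenic factor gene, rose by 0.52 in log2 units (edgeR adjusted p = 7.57e-06). HMOX1, which encodes heme oxygenase, fell by 0.41 in log2 units (edgeR adjusted p = 7.26e-06). PLAU (-0.23) and CCND1 (-0.19), which encode urokinase and cyclin D1 and were named after their values were seen, also fell (edgeR adjusted p of 0.0105 and 0.0442). The calls of PLAU and CCND1 were not checked under the alternative settings. In replicate 1, 5 of the 15 were higher and 6 lower, against 11.6% of all genes higher and 12% lower. CXCL8, named after its values were seen, was lower in replicate 1 by a log2 difference of -2.92, close to that of FOSB, and had a paired TIM-1 value of -0.09 (edgeR adjusted p = 0.680). The collagenase and stromelysin genes MMP1, MMP3, MMP10 and MMP13, textbook AP-1 targets, had at most 13 counts in any library and were not tested.

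Around MYC, 10 of 11 MYC-family and MAX-network genes were tested. Of these, 1 was called higher with TIM-1 and 0 lower, against 3.22% of all genes higher and 1.79% lower. MXI1, a MAX-binding antagonist of MYC, rose by 0.34 in log2 units in the paired test (edgeR adjusted p = 0.00509), and was also higher in replicate 1 by a log2 difference of 0.84. The MXI1 call was lost when pair 2 was left out (edgeR adjusted p = 0.112) and in the paired DESeq2 test (adjusted p = 0.0931). Of 20 MYC target genes, all tested, 1 rose with TIM-1 and 4 fell, against the same 3.22% and 1.79% of all genes, with a median log2 fold change of -0.15. ODC1, which encodes ornithine decarboxylase of polyamine synthesis, fell by 0.27 in log2 units (edgeR adjusted p = 0.00261) and SRM, spermidine synthase, by 0.38 in log2 units (edgeR adjusted p = 0.0119). RRP9 (-0.25) and WDR43 (-0.22), ribosome assembly genes named after their values were seen, also fell (edgeR adjusted p of 0.0242 and 0.0389). The calls of RRP9 and WDR43 were not checked under the alternative settings. LDHA, the lactate dehydrogenase gene, which hypoxia also induces, rose by 0.33 in log2 units (edgeR adjusted p = 0.000448). Of the same 20, 11 were lower and 1 higher in replicate 1, against 12% of all genes lower and 11.6% higher, with a median log2 difference of -0.27. Without the replicate 2 pair the calls of ODC1 (edgeR adjusted p = 0.0890) and LDHA (0.164) were lost, and without the replicate 3 pair that of SRM (0.139), whose log2 fold change was then -0.19. SRM was also not called by DESeq2 in pairs (adjusted p = 0.458) or with the coarser block (edgeR adjusted p = 0.206).

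The genes whose levels followed a member most closely were found as those with the smallest root mean square difference of log2 CPM deviations over the 6 libraries, among 9297 genes of at least 10 CPM. For EGR1 they were CCN2 (0.0657), JUNB (0.0785) and SDF2L1 (0.0949), against a median of 0.561 over these 9297 genes. CCN2, which encodes a matricellular growth factor, had 134, 264 and 283 CPM in TIM-1 replicates 1, 2 and 3, against 122.5, 259.9 and 283 CPM in the empty-vector replicates. For MYC they were RRP12 (0.0531), H2BC5 (0.0598) and SH2D5 (0.0612), against a median of 0.471. RRP12, a ribosome assembly gene, had 56.8, 98.0 and 108 CPM in TIM-1 cells, against 73.9, 121 and 138 CPM in empty-vector cells. It was picked for its likeness to MYC over these same libraries. That it was lower in each pair, as MYC was, follows from this choice and is no separate evidence. For JUN they were PRSS23, HMOX2 and PQBP1 (0.0164 to 0.0279), and for FOSL1 EIF4B, DPAGT1 and TAFAZZIN (0.0197 to 0.0237). These values describe 6 libraries that share depth scaling and the replicate 1 difference.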

How the data were processed

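The 6 UMUC3 RNA-seq libraries were grouped by their treatment labels, and the titles gave the replicate numbers. The deposited table holds the authors' raw read counts per Ensembl gene, not normalized, per the file headers. The submitters' processing notes name HISAT2 2.0.5, featureCounts 1.5.0-p3, DESeq2 1.16.1 and the build hg38. The annotation release, strand setting and rule for multiply mapped reads were not given in the sources used here, so FOSB, JUNB, FOSL2 and IER2, which overlap a gene on the other strand, may share reads with it.

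Symbols were matched to 60593 identifiers, and 58337 were in GENCODE 29. Genes were kept with filterByExpr (minimum count 10). The main test was the edgeR 4.0.16 quasi-likelihood F test with TMM scaling in R 4.3.3, two-sided, adjusted by Benjamini-Hochberg over all 14479 genes at 0.05. Fold changes are TIM-1 over empty vector. CPM uses TMM-scaled library sizes, and DESeq2 1.42.0 was an alternative. The members, gene lists and the replicate 1 comparison were chosen with earlier results of these data known. All 10 members were named, and in each list up to 3 called genes of smallest p, or the 2 of highest CPM where none was called. The values of 2 list genes are not reported here.

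The labels do not say what the numbers mark. Deviations from the group means correlated at 0.59, 0.29 and 0.32 for same-numbered libraries 1, 2 and 3, above the 0.1 set for pairing, so paired results are given too. Between different numbers the highest was 0.31, for TIM-1 replicate 3 with empty-vector replicate 2, above the 0.29 of the pair numbered 2, so in these data only replicate 1 stands clear as a pair. The paired fit has 2 residual degrees of freedom. No library copied another (chi-square per degree of freedom at least 4.20 within groups). Tested on simulated data with 14104 genes, the unpaired test recovered 1.59%, 54.5% and 84.6% of changes of 0.5, 1 and 2 on the log2 scale. With 14122 genes the paired test recovered 72.3%, 87.7% and 100%. False calls were 0 of 13910 unchanged genes unpaired and 7 of 13926 paired. The simulated data took their scatter from the paired fit and gave both groups the same replicate levels. Pairing was thus built in, so these shares cannot show which test suits the real libraries.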

Additional observations from a re-analysis of the deposited data

How the results depend on the processing

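FOSB and MYC were called lower in the paired test under all 8 alternatives that kept a block, and JUND also under 2 of them, GC correction and leaving out the replicate 1 pair. Unpaired, 2 genes of the table and 0 members were called. The replicate block raised this to 725 genes and 2 members, the replicate block with DESeq2 to 209 and 2, with GC correction to 1309 and 3, and a replicate block of replicate 1 against the others to 510 and 2. DESeq2 unpaired called 25 genes and no low-count filter 72, with 0 members each. Leaving out libraries gave 1 to 257 genes and 0 to 2 members, the highest without replicate 1 in both groups, an alternative chosen after seeing the data. From the 725 paired calls, DESeq2 gave 209, GC correction 1309, leaving out a pair 209 to 838, and no replicate block 2, with 0 members. GC correction moved the share of higher calls from 64.3% to 52.3%. For replicate 1, 3413 genes were called, and 1378 to 4021 without a library, with 7 to 9 members lower.

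Leaving out libraries also turned the sign of small differences, each with an adjusted p above 0.7 where turned. On the log2 scale the unpaired values ran from -0.53 to 0.26 for FOS, -0.080 to 0.066 for FOSL1, -0.43 to 0.16 for JUNB, -0.64 to 0.064 for JUND, -0.33 to 0.27 for EGR1, -0.35 to 0.26 for IER2, -0.61 to 0.10 for ZFP36L1, -0.080 to 0.38 for NAB2, -0.042 to 0.14 for JUN, -0.021 to 0.53 for PLK2, -0.25 to 0.038 for MAP2K2 and -0.11 to 0.019 for NAB1. With a pair left out, the paired values ran from -0.056 to 0.10 for EGR1, -0.13 to 0.020 for NAB1, -0.065 to 0.018 for IER2, -0.055 to 0.032 for FOSL1, -0.0026 to 0.059 for JUN and -0.23 to 0.043 for MAP2K2. For replicate 1 against the others they ran from -0.031 to 0.0085 for FOSL2. Unpaired, EGR1 turned to 0.030 with the replicate block, 0.023 with the block in DESeq2, 0.026 with the block and GC correction and 0.029 with the coarser block, against -0.0073 with no replicate block. The cause of these shifts was not tested. Over all 6 libraries and with the main settings, the block changed no member's call but those of FOSB and MYC. Without replicate 1, JUND was called with the block and not without it. Unpaired, the standard errors of the members ran from 0.07 for FOSL2 to 1.07 for FOSB, which limits what 3 libraries a group can show for the members that vary by replicate number.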
